A study of Mus musculus with 24 samples.

Results

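Family 2 of the cytochromes P450 (Cyp2) was described in mouse liver across loss of the transcription factor FoxO1 and a short refeeding. The genes were chosen by name alone: every locus called Cyp2 followed by 1 letter and a number was taken, which gave 48 of the 23746 loci listed. They fell into 13 subfamilies. The c subfamily had 15 genes, d had 9, j had 7, b had 5 and a had 4, while e, f, g, r, s and u had 1 each. Cyp2t4 and Cyp2w1 lay outside these 11 compared subfamilies.

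The study took C57BL/6 livers in 24 libraries, 3 in each of 8 groups, from 2 models of hepatocyte FoxO1 loss. In the acute model, mice with the floxed FoxO1lox/lox alleles received AAV8.TBG.eGFP (GFP) or AAV8.TBG.Cre (Cre) by tail vein, and livers were taken on day 21. In the constitutive model, mice with the same floxed alleles carried no Cre (WT) or carried Albumin-cre and are labelled FoxO1-/- (KO), with no virus. Every kind of mouse was sampled after a fast of 4 h, with or without 1 h of refeeding. The TBG and albumin promoters are used to drive expression in hepatocytes, other cells of the liver were not measured apart, and the controls of both models carry the floxed alleles too. The labels give no sex and do not say that libraries came from separate animals, so the p-values measure the spread between these libraries.

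P450 enzymes hold a haem iron through a cysteine and use electrons from the reductase Por to oxidise drugs, steroids, fatty acids and other small molecules. In rodent liver, family 2 is one of the largest groups of drug-metabolising enzymes, and several of its genes stand in clusters of near-identical copies on 1 chromosome. Its genes are known to respond to the xenobiotic receptors CAR and PXR, to the position of the hepatocyte along the lobule and to the pattern of growth hormone that differs between male and female mice.

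How alike the copies are bears on every value, since reads from shared stretches can be assigned to either copy and such levels are uncertain. Coding sequences from GENCODE M21 (GRCm38, the build called mm10) were found for 46 of the 48 genes, and 22 of these had another Cyp2 gene with at least 90% identical coding bases. None was found under the names Cyp2c44 and Cyp2d13, whose likeness to other copies was not measured. Cyp2a4 and Cyp2a5 were 98.5% identical, Cyp2c37 and Cyp2c50 96.1%, Cyp2c54 and Cyp2c50 95.2%, Cyp2c38 and Cyp2c39 94.2%, and Cyp2b9 and Cyp2b13 92.7%. Cyp2e1 (64.5%), Cyp2f2 (62.7%) and Cyp2u1 (54.99%) had no close copy. The signature of the haem-binding cysteine was found in 44 of the 46 coding sequences, and not in Cyp2b10 or Cyp2s1. The 30 coding bases around this cysteine are shown for some genes of the c subfamily, with the cysteine codon in capitals. Other called genes, such as Cyp2e1, Cyp2d9 and Cyp2c55, are not shown. Each of the runs shown crosses an exon junction.
Cyp2c37: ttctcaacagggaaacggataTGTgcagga
Cyp2c54: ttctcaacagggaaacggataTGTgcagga
Cyp2c50: ttctcaacaggaaaacggataTGTgcagga
Cyp2c29: ttttcaacaggaaaacggattTGTgctgga
Cyp2c38: ttctcagcaggaaaacgggttTGTgctgga
Cyp2c39: ttctcagcaggaaaacgtgttTGTgctgga
Cyp2c37 and Cyp2c54 had 0 differences in this stretch, and Cyp2c50 differed from them at 1 base. Cyp2c38 and Cyp2c39 also differed at 1 base, while Cyp2c29, the most abundant gene of the subfamily, differed from Cyp2c37 at 4.

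Because Cyp2c38 and Cyp2c39 fell together in the acute model, and Cyp2c37 and Cyp2c50 in the constitutive model, their promoters are shown side by side, from 250 bases before to 50 after the start of the gene (RefSeq, GRCm38.p6). The motif GTAAACA, which FoxO and FoxA factors can bind, is in capitals where present; it was searched on both strands and reads TGTTTAC where it lies on the reverse strand.
Cyp2c38, chr19:39463026-39463325, minus strand: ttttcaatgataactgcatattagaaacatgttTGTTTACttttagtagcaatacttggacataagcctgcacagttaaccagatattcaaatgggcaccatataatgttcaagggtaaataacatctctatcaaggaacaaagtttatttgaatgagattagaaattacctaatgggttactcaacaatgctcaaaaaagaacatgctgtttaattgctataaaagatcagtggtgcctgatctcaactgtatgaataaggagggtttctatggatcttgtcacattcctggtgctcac
Cyp2c39, chr19:39510572-39510871, plus strand: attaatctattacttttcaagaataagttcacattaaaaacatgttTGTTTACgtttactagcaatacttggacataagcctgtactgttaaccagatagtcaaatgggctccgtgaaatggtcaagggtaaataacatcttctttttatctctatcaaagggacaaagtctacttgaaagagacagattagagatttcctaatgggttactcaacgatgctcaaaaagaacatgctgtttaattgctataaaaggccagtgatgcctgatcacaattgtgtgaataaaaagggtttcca
Cyp2c37, chr19:39992174-39992473, plus strand: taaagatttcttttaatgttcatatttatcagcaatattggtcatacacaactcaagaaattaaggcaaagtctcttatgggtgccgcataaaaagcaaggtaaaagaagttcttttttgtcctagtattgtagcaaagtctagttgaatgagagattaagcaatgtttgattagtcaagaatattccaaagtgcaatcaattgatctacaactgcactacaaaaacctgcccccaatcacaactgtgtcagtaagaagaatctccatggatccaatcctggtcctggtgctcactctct
Cyp2c50, chr19:40089429-40089728, plus strand: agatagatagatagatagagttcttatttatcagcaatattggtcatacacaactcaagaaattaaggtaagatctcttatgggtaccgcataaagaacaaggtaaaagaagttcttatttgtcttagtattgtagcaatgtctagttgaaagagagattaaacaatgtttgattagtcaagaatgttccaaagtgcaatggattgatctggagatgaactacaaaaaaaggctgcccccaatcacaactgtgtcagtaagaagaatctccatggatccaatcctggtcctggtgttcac
Cyp2c38 held the motif 217 bases before its start and Cyp2c39 held it 204 bases before. Of the 40 Cyp2 genes with a promoter in the table, 3 held it (the other was Cyp2j5), against 3.65% of 32851 promoters of this length. Cyp2c38 and Cyp2c39 are copies with 94.2% identical coding bases, so their matches are not separate cases. The STAT5 motif TTCNNNGAA was in 2 of 40 (8.3% of all promoters), the HNF4 motif CAAAGTCCA in 6 of 40 (0.475% of all), and the direct repeat DR4 of CAR and PXR in 0 of 40 (0.0122% of all). This exact DR4 string was in only 4 of all 32851 promoters, so 0 of 40 tells nothing about CAR or PXR sites. Sites farther than 250 bases before the start were not searched. The 6 with the HNF4 motif were Cyp2c40, Cyp2c65, Cyp2c67, Cyp2c68, Cyp2c69 and Cyp2c70. Of these, Cyp2c40, Cyp2c67, Cyp2c68 and Cyp2c69 are copies with 92.2 to 97.7% identical coding bases, so their matches are not separate cases. Promoter identity was 86.6% between Cyp2c37 and Cyp2c50 and 72.6% between Cyp2c38 and Cyp2c39. A match is a run of letters, not a bound site.

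Levels are FPKM, mapped fragments scaled to transcript length and to library size, which are per length and so can be set side by side between genes. Depth, estimated from the deposited confidence limits, was 6.28 to 15.7 M (mega) fragments a library. Among acute libraries, 1 per group was deeper (12.9 to 15.7) than the other 8 (6.28 to 7.63), and the constitutive libraries had 12.04 to 13.8 on the same scale. Foxo1 was 4.21 to 6.81 FPKM in the 12 control libraries and 0.212 to 0.571 in the 12 knockout libraries, and fell in all 4 knockout comparisons by 2.05 to 2.34 on the log2 scale (limma). The summed level of 8 hepatocyte markers was 55670 to 78510 FPKM in every library, and Xist was at most 0.0372 FPKM and Ddx3y at least 2.99 FPKM in all 24.

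GFP fasted 1, GFP refed 2 and GFP refed 3 stood apart in some genes known to differ between male and female liver. They were picked after seeing the data, as the libraries with Cyp2b13 above 50 FPKM. Their Cyp2b13 was 55.6, 62.4 and 93.3 FPKM, against at most 3.24 in the other 21 libraries. Their Cyp2d12 was 4.88, 3.94 and 9.73 FPKM, against 11.002 to 29.4. Their Hsd3b5, a male-biased steroid dehydrogenase, was 11.7, 2.72 and 8.26 FPKM. Its range in the other libraries is not given, so Hsd3b5 is not read as setting them apart. Their Cyp2b9 was 133, 109 and 187 FPKM, against at most 58.4. Not every sex-biased gene set them apart. Their Cyp2a4 was 318, 595 and 318 FPKM, against up to 373, and their Cyp2d9 was 171, 136 and 330, against 293 to 868. All 3 libraries are controls of the acute model, so each call of a Cyp2 gene in the acute knockout comparisons is also given without them where it changes. In bulk liver, fewer cells of a type and less RNA per cell cannot be told apart.

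Cyp2 transcripts made up 1.31 to 2.38% of all FPKM. Their sum was 7742 to 13018 FPKM (median 10407). Of the 48 genes, 37 reached at least 1 FPKM in at least 3 libraries, 30 did so in every library, and 17 had a median of at least 100. Cyp2j11, Cyp2j12, Cyp2j13 and Cyp2w1 were listed at 0 in all 24. The remaining 7 (Cyp2b19, Cyp2b23, Cyp2c65, Cyp2c66, Cyp2j8, Cyp2s1 and Cyp2t4) were seen at low values in some libraries. Cyp2s1, known mostly from tissues outside the liver, was 0 to 0.461 FPKM (median 0.172), and Cyp2t4 0 to 0.289.

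Cyp2e1, which oxidises ethanol and acetaminophen in pericentral hepatocytes, alone took 38.3 to 50.6% of the Cyp2 sum. The c subfamily took 17.4 to 25.6%, d took 8.85 to 21.9%, a took 7.87 to 20.7%, f took 3.66 to 7.45% and j took 1.29 to 1.97%. The b subfamily took 0.0121 to 2.35%. In medians of the subfamily sums, e (4469 FPKM) stood above c (2073), d (1639), a (1266), f (550), j (176), b (27.1), r (5.74), u (2.68) and g (1.85). Over the 24 libraries the ranges of neighbours in this order overlapped, except those of a and f and of f and j.

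**Figure D1:**
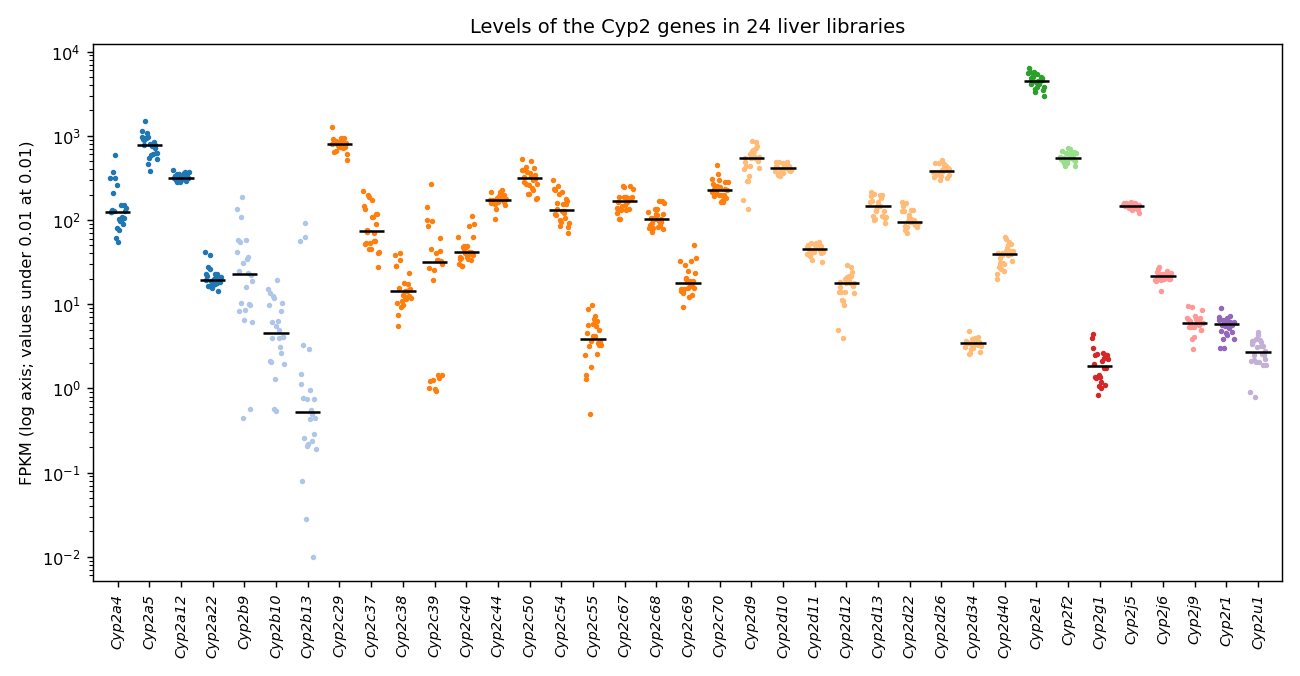
Level of each Cyp2 gene that reached at least 1 FPKM in at least 3 libraries, in FPKM on a log axis. Each dot is 1 of the 24 libraries and the black line is the median; Cyp2e1 lies highest (2988 to 6321 FPKM), and Cyp2b13 and Cyp2b9 have the widest spread.

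How far levels spread over all 24 libraries differed by gene, as the ratio of the highest to the lowest value in the 30 genes at or above 1 FPKM in every library. Cyp2j5, an arachidonic acid epoxygenase, had a highest value 1.32 times its lowest, Cyp2a12 1.41 times, Cyp2d10 1.47 times and Cyp2f2 1.66 times. In all, 8 of the 30 stayed under 2 times. Cyp2a4 spanned 10.97 times, Cyp2c37 7.97, Cyp2d12 7.46, Cyp2c38 7.28 and Cyp2d9 6.41.

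Each comparison was tested by limma on log2(FPKM + 1) over all genes at or above 1 FPKM in at least 3 fitted libraries, with Benjamini-Hochberg adjustment over those genes. This scale understates the change of low genes. In acute knockout, averaged over the fasted and refed states, 6 Cyp2 genes fell and 1 rose of 37 tested, against 1.47% of all 10452 genes called. The genes that fell were Cyp2b10, Cyp2c37, Cyp2c38, Cyp2c39, Cyp2c54 and Cyp2e1, and Cyp2c55 rose. Of the 37, 26 had a change below 0, with a median of -0.16 on the log2 scale against -0.0027 for all genes tested. In constitutive knockout averaged over both states, 4 of 36 fell (Cyp2c37, Cyp2c50, Cyp2c54 and Cyp2d9) and 0 rose, against 0.723% of 10375 genes, with 21 of 36 below 0 and a median of -0.06. Cyp2c37 and Cyp2c54 are on both lists. By state, 2 fell in acute fasted livers (0.297% of all genes called) and 1 in acute refed livers (0.105%), while 1 fell in constitutive refed livers (0.0289%). In constitutive fasted livers 0 of 36 were called by limma (0.0964% of all genes), with 7 at an unadjusted p under 0.05. Counts at an unadjusted p, here and below, are given without the share of all genes at that cut. They are not read as a result about the genes counted.

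**Figure D2:**
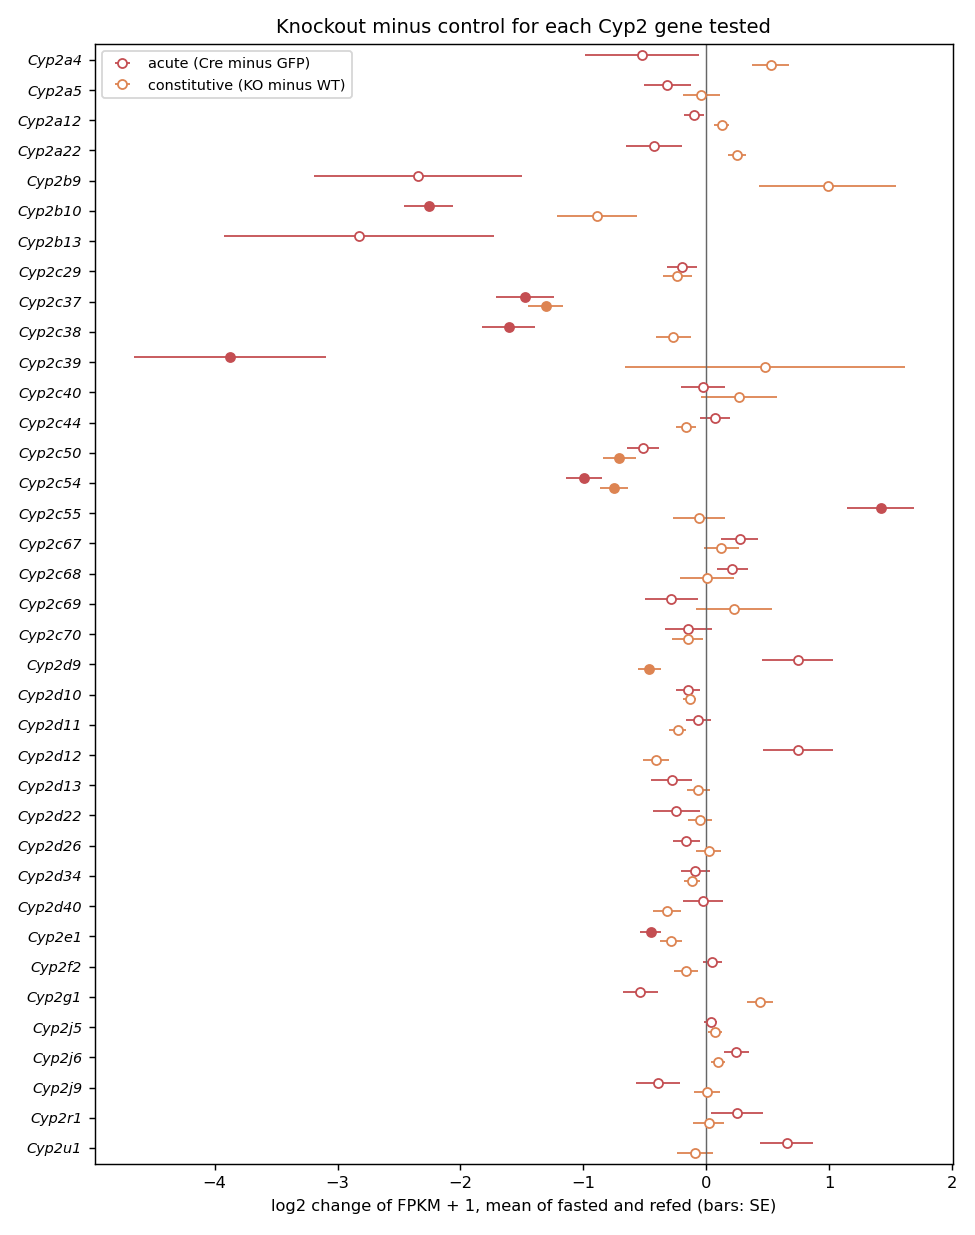
Change of each tested Cyp2 gene with FoxO1 loss, as the log2 difference of FPKM + 1 averaged over the fasted and refed states, with its standard error. Red is the acute and orange the constitutive model, and filled points passed limma at an adjusted p under 0.05; Cyp2c37 and Cyp2c54 are filled in both, and the acute changes of the b genes and Cyp2c39 reach farthest below 0.

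Without GFP fasted 1, GFP refed 2 and GFP refed 3, 3 of 37 Cyp2 genes were called in acute fasted livers (Cyp2b10, Cyp2c37 and Cyp2c38; 0.341% of all genes called), 0 in acute refed livers (0.0195% of all, with 11 Cyp2 genes at an unadjusted p under 0.05) and 1 (Cyp2b10) over both states (0.175% of all). GFP refed was then a single library assumed to vary like the other groups. With the deepest library of each acute group left out, limma called 0 of 37 in each of these 3 comparisons (0.0488, 0.0391 and 0.0684% of all genes called), with 12, 12 and 13 at an unadjusted p under 0.05.

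Cyp2b10, the classical target of the receptor CAR and phenobarbital (chr7:25897664-25926624), showed the clearest acute change. It was 15.2, 9.80 and 13.4 FPKM in GFP fasted livers and 2.13, 2.05 and 3.97 in Cre fasted livers. In refed livers it was 6.14, 12.6 and 11.8 FPKM with GFP and 0.562, 1.30 and 0.532 with Cre. The Cre libraries lay below every GFP library of the same state. Its mean was 12.8 ± 2.75 (SD, n = 3) against 2.71 ± 1.09 FPKM when fasted, 4.72-fold lower in the knockout, and 10.2 ± 3.53 against 0.799 ± 0.436 FPKM when refed, 12.8-fold lower. It fell by 1.91 ± 0.28 (SE) on the log2 scale when fasted (adjusted p = 0.0134, limma) and by 2.61 ± 0.28 when refed (adjusted p = 0.00422). Over both states it fell by 2.26 ± 0.20 (adjusted p = 0.000787). This call held in each of 12 fits that left out 1 library, whereas the fasted call was lost in 4 of 6, without GFP fasted 1, GFP fasted 3, Cre fasted 1 or Cre fasted 2 (adjusted p 0.0507 to 0.0857). Without the 3 libraries that stood apart the changes were -1.79 fasted (adjusted p = 0.0363), -2.01 refed (0.169) and -1.90 over both (0.0365).

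In the constitutive model Cyp2b10 was 5.53, 19.2 and 6.27 FPKM in WT fasted and 4.97, 3.95 and 3.07 in KO fasted livers. It was 8.23, 2.66 and 10.3 in WT refed and 4.10, 4.05 and 1.93 in KO refed livers. The fasted groups did not overlap and the refed groups did, and the change over both states, -0.89 ± 0.33, was not called (adjusted p = 0.317). The difference between the models was not called either, at -0.91 ± 0.59 when fasted (adjusted p = 0.798) and -1.83 ± 0.59 when refed (0.356).

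Cyp2b9 and Cyp2b13 are similar copies known for higher levels in female liver, and Cyp2b13 is the gene by which the 3 libraries were picked. Cyp2b9 was 133, 41.5 and 58.4 FPKM in GFP fasted, 8.20, 24.9 and 55.2 in Cre fasted, 10.3, 109 and 187 in GFP refed and 0.449, 30.7 and 6.57 in Cre refed livers. Its groups overlapped in both states, and its acute change over both states was -2.34 ± 0.85 (adjusted p = 0.232). In the constitutive libraries Cyp2b9 was 0.568 to 58.4 FPKM, with overlap, and Cyp2b13 was 0 to 2.95 FPKM and did not pass the filter on low values there.

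**Figure D3:**
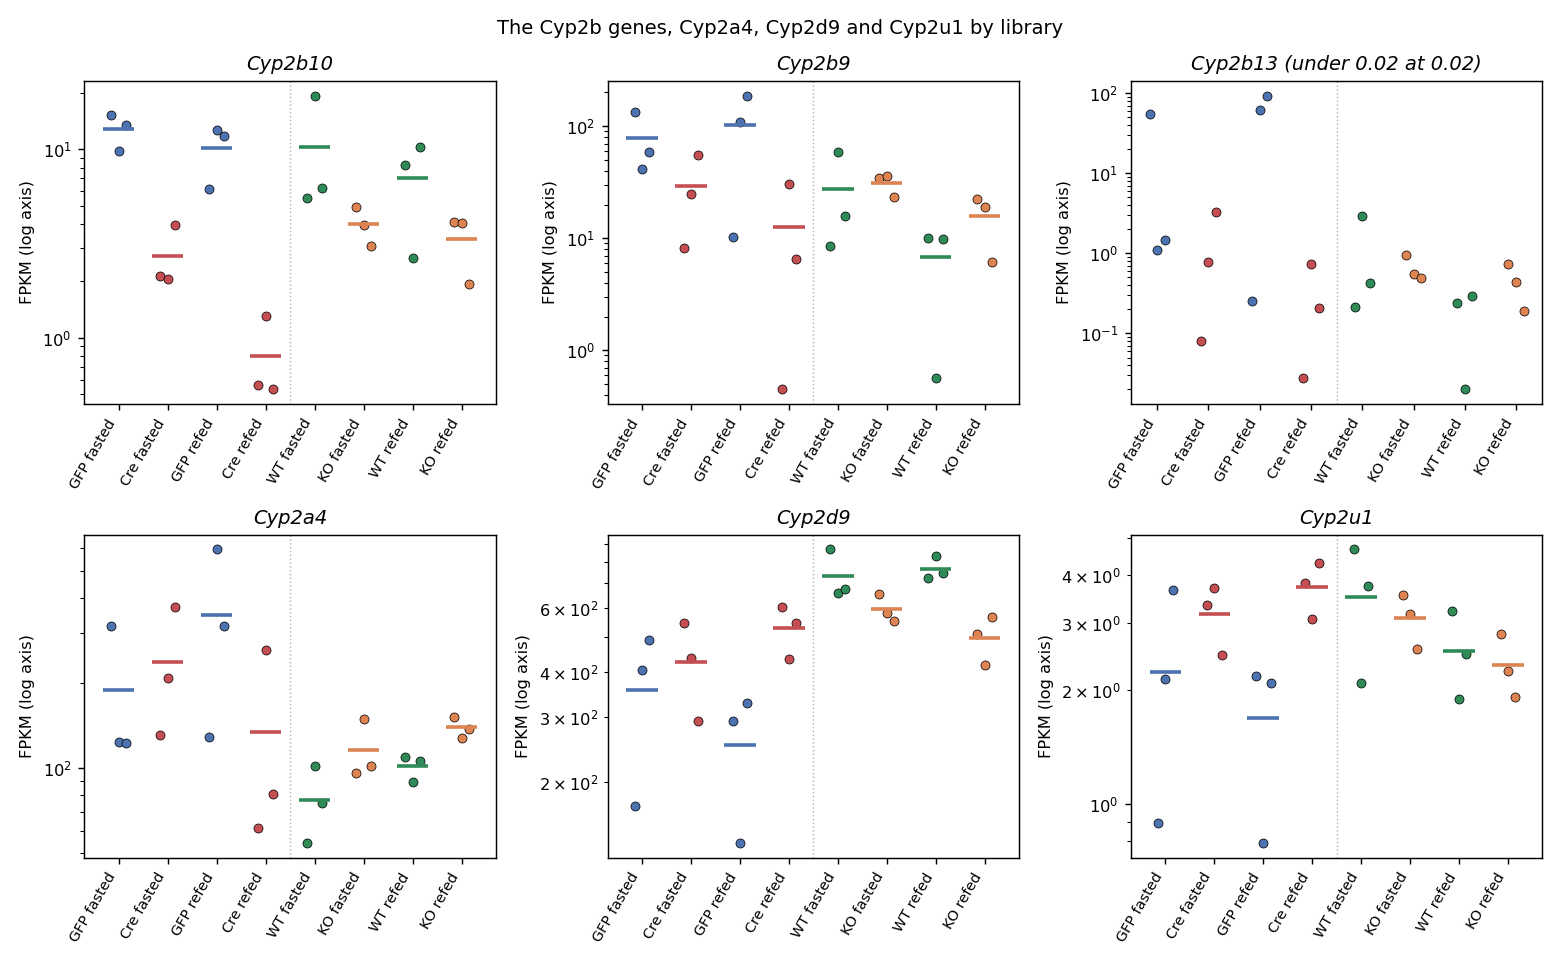
FPKM on a log axis in each library of the 8 groups for Cyp2b10, Cyp2b9, Cyp2b13, Cyp2a4, Cyp2d9 and Cyp2u1, chosen after their values were seen. Each point is 1 library, bars are group means (not drawn for Cyp2b13, whose value of 0 in WT refed 2 sits at the bottom), and the 3 Cyp2b13 values above 50 are GFP fasted 1, GFP refed 2 and GFP refed 3.

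Cyp2c37 (chr19:39992424-40012243), Cyp2c54 (chr19:40037940-40073813) and Cyp2c50 (chr19:40089679-40113955) lie side by side and make enzymes known to oxidise fatty acids such as arachidonic acid. Their mutual coding identity was 95.1 to 96.1%, so their levels could be split differently by counting. Cyp2c37 was 221, 148 and 133.9 FPKM in GFP fasted and 51.9, 53.8 and 76.2 in Cre fasted livers, and 72.7, 198 and 185 in GFP refed and 44.9, 53.8 and 45.5 in Cre refed livers. It was 108, 173 and 110 FPKM in WT fasted and 56.2, 69.7 and 56.1 in KO fasted livers, and 119, 89.6 and 117 in WT refed and 27.7, 40.6 and 42.0 in KO refed livers. In all 4 pairs of groups every knockout library was below every control library.

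Over both states Cyp2c37 fell by 1.48 ± 0.23 on the log2 scale in the acute model (adjusted p = 0.0140), a mean 2.94-fold lower, and by 1.31 ± 0.14 in the constitutive model (adjusted p = 0.00236), 2.45-fold lower. In constitutive refed livers alone it fell by 1.55 ± 0.20 (adjusted p = 0.0236). That call was lost in 4 of 6 fits, all but those without WT refed 2 or KO refed 1 (adjusted p 0.0550 to 0.0860). The calls over both states held in every fit that left out 1 library. Without the 3 libraries that stood apart, whose Cyp2c37 was 221, 198 and 185 FPKM, the acute change was -1.22 fasted (adjusted p = 0.0286), -0.59 refed (0.554) and -0.91 over both (0.0589).

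Cyp2c54 was 301, 235 and 227 FPKM in GFP fasted against 116, 116 and 159 in Cre fasted livers, and 135.2, 252 and 202 in GFP refed against 84.3, 101 and 94.3 in Cre refed livers. It was 129, 216 and 153 FPKM in WT fasted against 120, 126 and 105 in KO fasted livers, and 177, 153 and 170 in WT refed against 69.9, 82.1 and 91.8 in KO refed livers. The knockout libraries again lay below the controls in all 4 pairs, most narrowly in constitutive fasted livers. Over both states it fell by 1.00 ± 0.15 in the acute model (adjusted p = 0.0103), 2.02-fold lower, and by 0.75 ± 0.12 in the constitutive model (adjusted p = 0.0163), 1.68-fold lower, and both calls held without any 1 library. Without the 3 libraries that stood apart the acute change was -0.69 (adjusted p = 0.0737).

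Cyp2c50, the most abundant of these 3 genes, was 528, 392 and 391 FPKM in GFP fasted against 284, 327 and 398 in Cre fasted livers, and 270, 422 and 372 in GFP refed against 204, 259 and 205 in Cre refed livers. It was 359, 499 and 335 FPKM in WT fasted against 239, 296 and 229 in KO fasted livers, and 418, 310 and 343 in WT refed against 178, 180 and 270 in KO refed livers. Only the acute fasted groups overlapped. It fell over both states in the constitutive model by 0.71 ± 0.14 (adjusted p = 0.0439), 1.63-fold lower, a call kept only in the fit without KO refed 3 and lost in the other 11 (adjusted p 0.0563 to 0.111). Its acute change over both states was -0.51 ± 0.13 (adjusted p = 0.0913).

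Since reads could move between these copies, their FPKM were also summed. The sum was 751 to 1049 in GFP fasted and 452 to 633 in Cre fasted livers, and 478 to 872 in GFP refed and 333 to 414 in Cre refed livers. It was 596 to 888 in WT fasted and 390 to 492 in KO fasted livers, and 553 to 714 in WT refed and 275 to 404 in KO refed livers. No knockout library reached the control range in any of the 4 pairs.

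**Figure D4:**
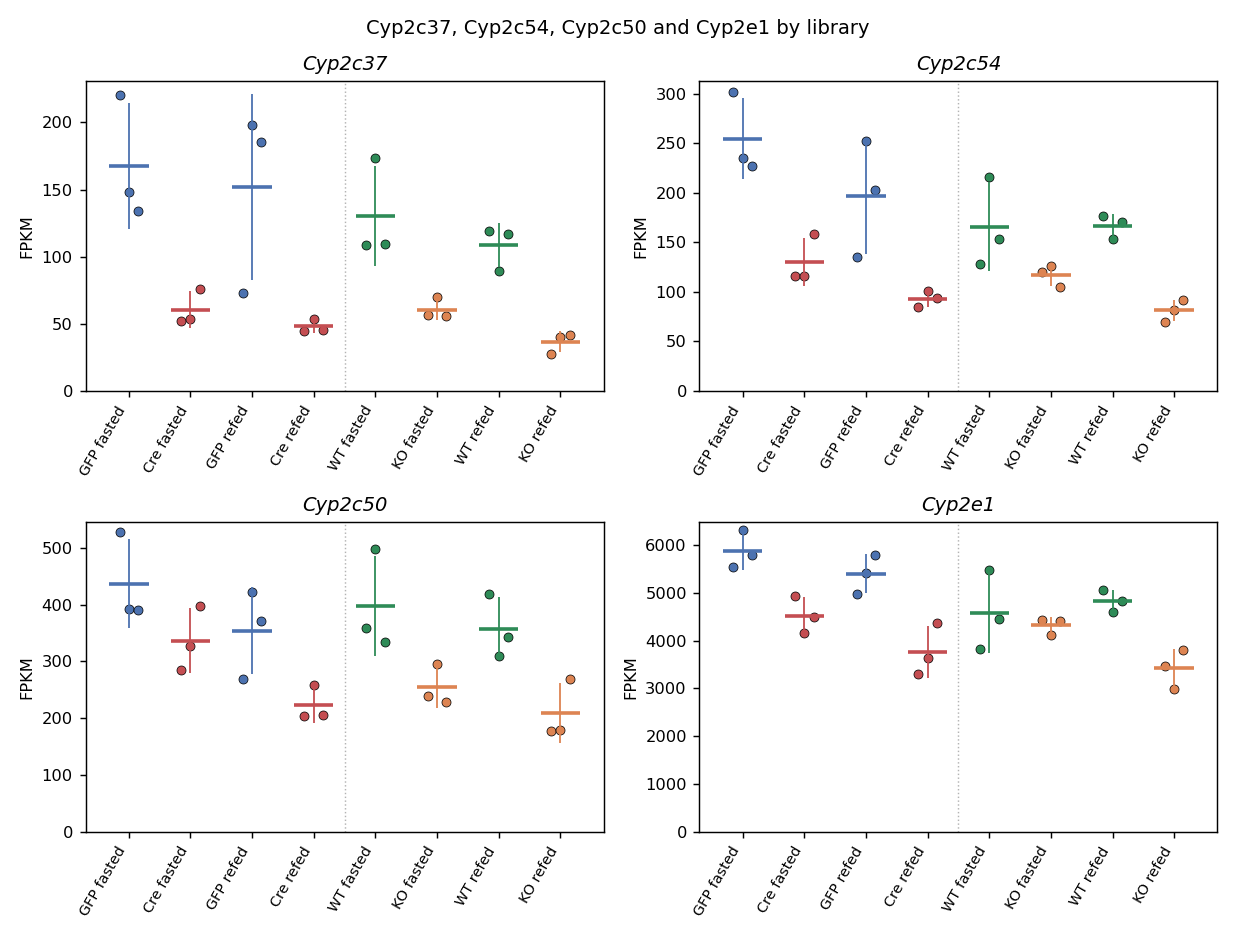
FPKM of Cyp2c37, Cyp2c54, Cyp2c50 and Cyp2e1 in each library of the 8 groups. Points are libraries, bars are group means and vertical lines are SD (n = 3); Cyp2c37 and Cyp2c54 lie lower in each knockout group than in its control.

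Cyp2c38 (chr19:39389556-39463075) and Cyp2c39 (chr19:39510822-39568529), the latter a retinoic acid hydroxylase, fell in the acute model. Cyp2c38 was 38.6, 28.7 and 28.7 FPKM in GFP fasted against 10.3, 5.58 and 7.39 in Cre fasted livers, and 15.4, 40.6 and 33.7 in GFP refed against 9.14, 10.8 and 12.8 in Cre refed livers. The groups did not overlap in either state. It fell by 1.94 ± 0.31 when fasted (adjusted p = 0.0272), 4.12-fold lower, and by 1.61 ± 0.22 over both states (adjusted p = 0.00753), 3.32-fold lower. The fasted call was lost in 5 of 6 fits, all but that without Cre fasted 1 (adjusted p 0.0749 to 0.145), while the call over both states held in all 12. Without the 3 libraries that stood apart the changes were -1.80 fasted (adjusted p = 0.0235) and -1.14 over both (0.0598).

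In the constitutive model Cyp2c38 was 9.73, 17.8 and 14.4 FPKM in WT fasted and 12.1, 11.5 and 14.2 in KO fasted livers, and 14.3, 17.5 and 23.6 in WT refed and 12.6, 15.1 and 11.95 in KO refed livers. These groups overlapped. The acute and constitutive changes differed by -1.83 ± 0.39 when fasted, which limma did not call (adjusted p = 0.111).

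Cyp2c39 took either of 2 levels. In 16 libraries it was 19.3 to 268 FPKM and in the other 8 it was 0.931 to 1.44, with none between. The low libraries were Cre fasted 2, Cre fasted 3, Cre refed 2, WT fasted 1, WT fasted 2, KO fasted 2, WT refed 1 and KO refed 3, which come from 6 of the 8 groups. In them Cyp2c38 was 5.58 to 17.8 FPKM, and in the 16 others 9.14 to 40.6. GFP libraries had 142, 101 and 84.3 FPKM of Cyp2c39 when fasted and 45.4, 268 and 97.2 when refed, all above the Cre libraries (27.1, 1.00 and 1.22, then 19.3, 1.25 and 25.3). It fell by 3.88 ± 0.78 over both acute states (adjusted p = 0.0392), a call lost in 10 of 12 fits, all but those without Cre fasted 1 or GFP refed 1 (adjusted p 0.0507 to 0.108). Without the 3 libraries that stood apart it was -3.17 (adjusted p = 0.338). In the constitutive groups the 2 levels were mixed within every group, and the change was 0.48 ± 1.14.

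**Figure D5:**
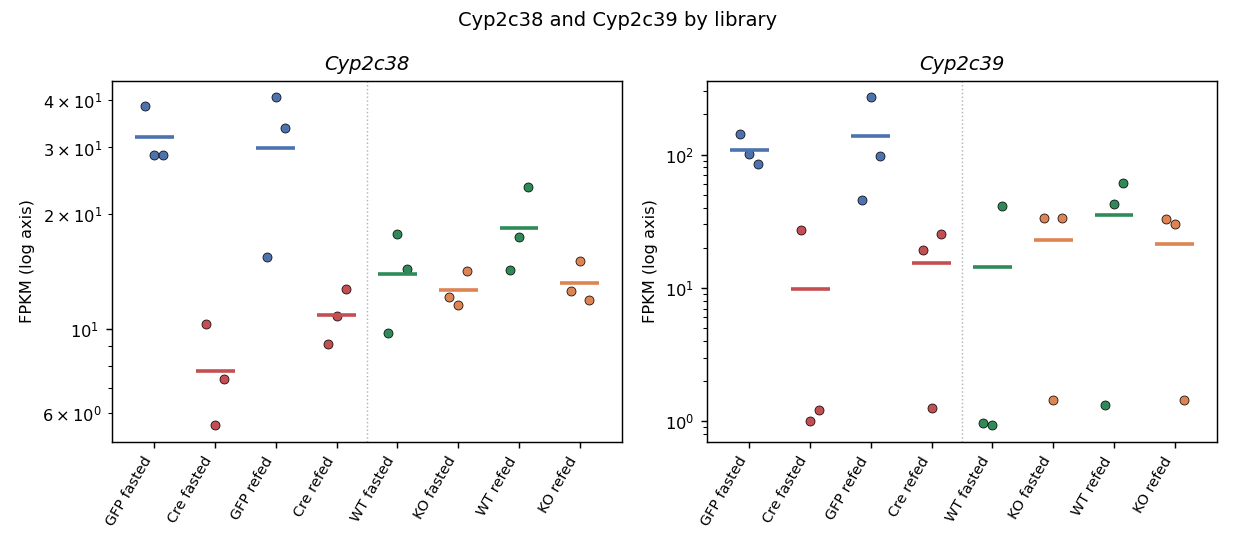
FPKM of Cyp2c38 and Cyp2c39 in each library of the 8 groups, on a log axis. Each point is 1 library and any bar is a group mean; Cyp2c39 splits into 16 libraries at 19.3 or above and 8 at 1.44 or below, and in the acute model both genes are higher with GFP than with Cre in each state.

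Cyp2c55, known as an inducible fatty acid hydroxylase, was the one Cyp2 gene that rose with acute loss. It was 2.51, 1.30 and 1.43 FPKM in GFP fasted against 4.55, 5.73 and 8.65 in Cre fasted livers, and 3.17, 0.499 and 1.78 in GFP refed against 3.65, 9.84 and 5.86 in Cre refed livers. The Cre libraries lay above the GFP libraries in both states, 3.58-fold higher in the mean. It rose by 1.42 ± 0.27 (adjusted p = 0.0304), a call lost in 7 of 12 fits, without GFP fasted 2, GFP fasted 3, Cre fasted 2, Cre fasted 3, GFP refed 3, Cre refed 2 or Cre refed 3 (adjusted p 0.0603 to 0.0801). Without the 3 libraries that stood apart it was 1.17 (adjusted p = 0.174). In the constitutive model it was 2.57 to 7.14 FPKM with overlapping groups, and its change was -0.06 ± 0.21.

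Cyp2c29, the c gene with the highest level and an epoxygenase, was 1284, 809 and 924 FPKM in GFP fasted, 837, 634 and 825 in Cre fasted, 651, 868 and 829 in GFP refed and 781, 771 and 746 in Cre refed livers. It was 735, 943 and 866 in WT fasted, 885, 723 and 729 in KO fasted, 946, 734 and 779 in WT refed and 829, 603 and 521 in KO refed livers. All 4 pairs overlapped. Of the other c genes, Cyp2c70, which makes muricholic acids, ranged over 164 to 453 FPKM and Cyp2c44 over 103 to 228, and neither was called in any comparison.

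Cyp2e1 was 5532, 6321 and 5782 FPKM in GFP fasted against 4924, 4160 and 4484 in Cre fasted livers, and 4983, 5409 and 5801 in GFP refed against 3295, 3646 and 4366 in Cre refed livers. The groups did not overlap in either state. It fell by 0.45 ± 0.084 on the log2 scale over both (adjusted p = 0.0272), 1.36-fold lower. The call was lost in 6 of 12 fits, without GFP fasted 2, GFP fasted 3, Cre fasted 2, Cre fasted 3, GFP refed 3 or Cre refed 2 (adjusted p 0.0587 to 0.0812), and without the 3 libraries that stood apart (-0.42, adjusted p = 0.223). In the constitutive model it was 3823, 5471 and 4454 in WT fasted and 4425, 4122 and 4420 in KO fasted livers, which overlapped, and 5058, 4609 and 4823 in WT refed and 3479, 2988 and 3801 in KO refed livers, which did not. The refed change was -0.50 ± 0.13 (adjusted p = 0.241). Of 16 other pericentral genes tested, 0 were called in either model over both states by limma (3 and 4 at an unadjusted p under 0.05).

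Cyp2d9, a male-biased testosterone hydroxylase (chr15:82452377-82456827), fell in constitutive knockout. It was 868, 658 and 678 FPKM in WT fasted against 655, 580 and 552 in KO fasted livers, and 725, 834 and 747 in WT refed against 509, 417 and 566 in KO refed livers. The KO libraries lay below the WT libraries in both states, narrowly when fasted. It fell by 0.47 ± 0.093 over both (adjusted p = 0.0493), 1.38-fold lower, a call kept only in the fit without KO refed 3 and lost in the other 11 (adjusted p 0.0537 to 0.131). In the acute model it was 171, 406 and 491 in GFP fasted, 546, 437 and 293 in Cre fasted, 293, 136 and 330 in GFP refed and 602, 433 and 545 in Cre refed livers. The Cre refed libraries lay above the GFP refed libraries, opposite to the constitutive model, with a change of 1.14 ± 0.41 (adjusted p = 0.415). In GFP fasted 1, GFP refed 2 and GFP refed 3, the libraries that stood apart, it was 171, 136 and 330 FPKM.

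Cyp2d12, a low-level neighbour, was 4.88, 13.8 and 15.8 FPKM in GFP fasted, 18.2, 14.1 and 11.3 in Cre fasted, 11.002, 3.94 and 9.73 in GFP refed and 19.7, 13.9 and 17.6 in Cre refed livers. It was 29.4, 21.1 and 19.5 in WT fasted, 21.4, 19.7 and 18.0 in KO fasted, 21.7, 28.0 and 24.4 in WT refed and 16.4, 13.5 and 17.8 in KO refed livers. As for Cyp2d9, refed Cre lay above refed GFP and refed KO lay below refed WT. The coding bases of Cyp2d12 were 92.1% identical to those of Cyp2d9, with a longest shared run of 158 bases. Reads could therefore move between these copies, and they may not be separate cases. The difference between the models when refed was 1.66 ± 0.46 for Cyp2d12 and 1.78 ± 0.46 for Cyp2d9, neither called (adjusted p = 0.293 each). Cyp2d10 and Cyp2d26, which were 335 to 493 and 296 to 521 FPKM, were called in no comparison.

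Cyp2a5, the coumarin hydroxylase and the most abundant a gene, was 1155, 979 and 909 FPKM in GFP fasted, 889, 786 and 1515 in Cre fasted, 933, 953 and 1068 in GFP refed and 466, 962 and 547 in Cre refed livers. It was 380, 802 and 598 in WT fasted, 748, 776 and 604 in KO fasted, 848, 719 and 773 in WT refed and 620, 532 and 632 in KO refed livers. Its groups did not overlap in constitutive refed livers and overlapped in the other 3 pairs. Its change was -0.32 ± 0.19 in the acute and -0.04 ± 0.15 in the constitutive model over both states, and 0 of the 4 a genes were called in either. Cyp2a4, a steroid hydroxylase almost identical to Cyp2a5 in coding sequence, was highest in GFP refed 2 (595 FPKM) and lowest in WT fasted 1 (54.2).

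Cyp2f2, the airway and liver enzyme that oxidises naphthalene, was 565, 523 and 654 FPKM in GFP fasted, 522, 521 and 548 in Cre fasted, 471, 443 and 476 in GFP refed and 625, 481 and 526 in Cre refed livers. It was 725, 553 and 700 in WT fasted, 574, 626 and 585 in KO fasted, 594, 527 and 647 in WT refed and 498, 438 and 624 in KO refed livers. Only the refed acute groups did not overlap, with Cre above GFP, and no comparison called it.

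Cyp2j5 was 151, 158 and 148 FPKM in GFP fasted, 157, 147 and 151 in Cre fasted, 150, 155 and 137 in GFP refed and 146, 160 and 162 in Cre refed livers. It was 130, 135.1 and 147 in WT fasted, 156, 143 and 160 in KO fasted, 138, 137 and 134.05 in WT refed and 135.3, 122 and 149 in KO refed livers. Its knockout changes over both states were 0.04 ± 0.05 and 0.07 ± 0.06 in the acute and constitutive models, and all 24 libraries lay between 122 and 162 FPKM.

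Cyp2r1, a vitamin D 25-hydroxylase, was 6.53, 7.03 and 3.0 FPKM in GFP fasted, 4.78, 8.91 and 5.63 in Cre fasted, 6.54, 3.83 and 2.996 in GFP refed and 6.04, 5.56 and 4.58 in Cre refed livers. It was 4.26, 6.90 and 6.38 in WT fasted, 5.23, 6.09 and 7.15 in KO fasted, 5.79, 4.63 and 5.68 in WT refed and 5.91, 3.85 and 6.07 in KO refed livers. All of these groups overlapped and none was called.

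Cyp2u1, a fatty acid hydroxylase, was 0.893, 2.13 and 3.65 FPKM in GFP fasted, 3.34, 3.69 and 2.46 in Cre fasted, 2.17, 0.790 and 2.08 in GFP refed and 3.81, 3.06 and 4.31 in Cre refed livers. It was 4.67, 2.08 and 3.75 in WT fasted, 3.54, 3.16 and 2.55 in KO fasted, 3.22, 1.89 and 2.48 in WT refed and 2.80, 2.24 and 1.91 in KO refed livers. The refed Cre libraries lay above the refed GFP libraries, but the acute change over both states, 0.65 ± 0.21, was not called (adjusted p = 0.186). Cyp2u1 lay under 1 FPKM in GFP fasted 1 and GFP refed 2, which are among the libraries that stood apart.

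Refeeding for 1 h called few Cyp2 genes, although it called many genes in 3 of the 4 kinds of mice. In GFP livers 1 of 37 fell (6.56% of all genes called), in Cre livers 1 of 37 rose (5.44%) and in KO livers 1 of 36 fell (5.68%). In WT livers limma called 0 of 36 (0.318% of all genes), with 2 at an unadjusted p under 0.05. These shares of Cyp2 genes were not above the background of all genes. Of the changes, 30 of 37 lay below 0 in GFP, 19 of 37 in Cre, 20 of 36 in WT and 27 of 36 in KO livers. In the same order, the median change was 0.077, 0.077, 0.010 and -0.021 for all genes tested. For the Cyp2 genes it was -0.124, -0.020, -0.012 and -0.195. With median-of-ratios scaling, 32 of 37 lay below 0 in GFP, 25 of 37 in Cre, 20 of 36 in WT and 27 of 36 in KO livers. The share of all genes below 0 is not given, so these counts are not read as a result about the Cyp2 genes. Alas1, the rate-limiting enzyme of haem synthesis, rose with refeeding by 1.93 in GFP (adjusted p = 0.00125) and by 1.17 in Cre livers (adjusted p = 0.0164), and was at 1.04 in WT (0.0835) and 0.70 in KO livers (0.101).

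Cyp2g1, best known from the olfactory mucosa, fell with refeeding in GFP livers. It was 4.00, 2.998 and 4.39 FPKM when fasted and 1.32, 1.38 and 2.58 when refed, without overlap, and fell by 0.82 ± 0.20 (adjusted p = 0.0352). The call was lost in 4 of 6 fits, without GFP fasted 1, GFP fasted 3, GFP refed 1 or GFP refed 2 (adjusted p 0.0971 to 0.113), and without the 3 libraries that stood apart (-1.003, adjusted p = 0.128). In the other groups it was 1.96, 1.38 and 2.51 in Cre fasted, 0.825, 1.44 and 1.08 in Cre refed, 1.38, 1.02 and 1.18 in WT fasted, 2.12, 2.61 and 1.75 in KO fasted, 2.29, 1.09 and 1.73 in WT refed and 2.46, 2.52 and 2.20 in KO refed livers. When fasted, Cre lay below GFP while KO lay above WT, and the difference between the models was -1.23 ± 0.26 (adjusted p = 0.111).

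Cyp2c67 rose with refeeding in Cre livers, from 189, 103 and 102 FPKM to 251, 186 and 244, groups that overlapped. The change was 0.83 ± 0.22 (adjusted p = 0.0496), lost in 5 of 6 fits, all but that without Cre fasted 1 (adjusted p 0.0720 to 0.168). In GFP livers it was 120, 137 and 166 fasted and 130, 141 and 147 refed, and the interaction was not called (0.84 ± 0.31, adjusted p = 0.715). In the constitutive groups Cyp2c67 was 149, 131 and 186 in WT fasted, 161, 170 and 175 in KO fasted, 136, 181 and 255 in WT refed and 179, 188 and 235 in KO refed livers.

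Cyp2d13 fell with refeeding in KO livers, from 146, 181 and 199 FPKM to 91.6, 106 and 110, without overlap, by 0.76 ± 0.13 (adjusted p = 0.0134, limma). The call was lost in 1 of 6 fits, without KO fasted 2 (adjusted p = 0.0553). In WT livers it was 161, 146 and 196 fasted and 113, 112 and 127 refed, also without overlap but not called. It was 163, 191 and 212 in GFP fasted, 170, 112 and 101 in Cre fasted, 203, 103 and 127 in GFP refed and 132, 147 and 147 in Cre refed livers. No coding sequence was found under the name Cyp2d13, so that this locus makes an enzyme was not checked.

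Whether refeeding changed the effect of FoxO1 loss, and whether the models differed, was tested directly. The interaction called 0 of 37 in the acute model (0.0287% of all genes called) and 0 of 36 in the constitutive model (0.0% of all), with 2 and 3 at an unadjusted p under 0.05. The difference between models called 0 of 37 in fasted livers (0.0% of all) and 0 of 37 in refed livers (0.0% of all), with 5 and 14 at an unadjusted p under 0.05 by limma. The share of all genes at that unadjusted cut is not given, so whether 5 or 14 exceeds it is not shown. Differences between the models' lists are therefore not shown.

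Genes around the Cyp2 family were read from lists, beside 1.47% of all genes called in the acute and 0.723% in the constitutive model over both states. In the acute model over both states, of 16 electron partners and haem genes 1 rose (Ppox, 0.36), and Por, the reductase that feeds these enzymes, was at -0.42 ± 0.11 (adjusted p = 0.0881). Of 29 regulators 1 rose and 1 fell, Foxa3 at 0.54 and Ppargc1a at -0.60. Of 27 other CAR and PXR targets, 3 rose (Gstm3, 1.17; Ces2c, 1.17; Ugt2b35, 0.59) and 1 fell (Sult1d1, -0.77). Of 20 P450s of families 1, 3 and 4, 3 fell, all fatty acid hydroxylases of the 4a subfamily (Cyp4a10, -0.97; Cyp4a31, -0.78; Cyp4a32, -0.69). Nr1i3, the gene of CAR, was 159, 137 and 145 FPKM in GFP fasted against 91.2, 91.8 and 117 in Cre fasted livers and 87.7, 110 and 128 against 50.7, 88.8 and 78.0 when refed, and was not called (-0.58 ± 0.14, adjusted p = 0.0708). Over both acute states, 0 genes of these 4 lists were called by limma without the 3 libraries that stood apart (4, 8, 9 and 6 at an unadjusted p under 0.05), and the genes named as called kept their direction, with adjusted p between 0.0673 (Ces2c) and 0.288 (Cyp4a31). In the constitutive model over both states, 0 genes of these 4 lists were called by limma, with 1, 2, 9 and 8 at an unadjusted p under 0.05.

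Sex-biased genes, in some of which the 3 libraries stood apart, were also read over both acute states. Of 19 male-biased genes outside Cyp2 tested, 3 rose (Nudt7, 0.83; C8a, 0.63; Ugt2b38, 0.57) and 19 lay above 0, with a median of 0.90, and of 12 female-biased genes 1 fell (Cyp4a10), 9 lay below 0 and the median was -0.73. With the 3 libraries left out, limma called 0 of 19 and 0 of 11 (6 and 1 at an unadjusted p under 0.05), with 17 of 19 above 0 (median 0.36) and 9 of 11 below 0 (median -0.15). The summed male-biased level was 5814 to 11380 FPKM in GFP fasted, 7955 to 14370 in Cre fasted, 4524 to 10380 in GFP refed and 12450 to 17220 in Cre refed livers. Cyp2b9, Cyp2b13, Cyp2a4 and Cyp2d9 belong to the same class of genes, and the part of these markers in the Cyp2 results was not tested beyond leaving out the 3 libraries. All 8 sinusoidal endothelial markers lay below 0 in the acute model over both states with 0 called by limma (4 at an unadjusted p under 0.05), and all 8 lay above 0 in the constitutive model with 1 called (Clec4g, 0.43), and their part in the Cyp2 results was not tested. Of 12 periportal genes, 1 rose in the acute model (Igf1, 0.35; 0.24 and adjusted p = 0.345 without the 3 libraries) and 0 were called in the constitutive model by limma (4 at an unadjusted p under 0.05). The lung and airway marker Scgb1a1 and the kidney marker Kap were at 0 in every library. The summed markers reached at most 0.397 FPKM for lung and airway, 0.035 for kidney and 0.1645 for olfactory mucosa. Other sets were not near 0. The intestine markers summed to 70.6 to 121.4 FPKM, the erythroid markers to 15.5 to 208.7 and the Kupffer and macrophage markers to 22.6 to 137.7. The part of these sets in the Cyp2 results was not tested.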

How the data were processed

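Liver RNA was measured by RNA-seq in 24 libraries. Libraries were made with a TruSeq Stranded mRNA kit, per the labels' protocols. FPKM per locus was deposited by the authors with its confidence limits, from HISAT2, Cufflinks and Cuffdiff on mm10, per the submitters' processing notes (versions not given in the sources used here). No counts were used. Of 23746 loci, 14 with a failed estimate were left out. Fragments per library were estimated from the confidence limits, and 50.8 to 55.1% of low values (under 50 fragments) came within 0.05 of a whole number (10% by chance), so no reads were recovered. Depth limits precision, and low genes most.

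log2(FPKM + 1) was fitted with limma 3.58.1 (R 4.3.3; 1 coefficient per group, eBayes with trend) over genes at or above 1 FPKM in at least 3 fitted libraries, per model (12 libraries), or jointly (24) for the differences between models. Tests were two-sided with Benjamini-Hochberg adjustment over all genes tested, in 14 comparisons, called at 0.05. The fit was tested on simulated data. Genes and lists were chosen with earlier results of these data known. Named with every library's value were Cyp2 genes called anywhere and the highest of each subfamily; Cyp2b9 and Cyp2d12 were added after their values were seen, and list genes were named by being called with the largest change, except Por and Nr1i3, which were not called and were chosen after their values were seen, and Alas1 in WT and KO livers. Replicate numbers were not used as pairs in the main fit, and whether they mark pairs was not settled. Alternatives were median-of-ratios scaling, array weights, a pseudocount of 0.1, a replicate block, no filter, an adjusted p under 0.01, the compared groups alone, each library left out and the deepest acute libraries left out; leaving out the 3 libraries that stood apart was chosen after seeing the data. Coding sequences were from GENCODE M21, promoters from RefSeq.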

Additional observations from a re-analysis of the deposited data

Results flagged for a closer look

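In 3 cases every knockout library of one model lay on the opposite side of its controls from every knockout library of the other. For Cyp2g1 in fasted livers, Cre lay below GFP and KO lay above WT, and the acute minus constitutive change was -1.228 on the log2 scale (adjusted p = 0.111, limma). For Cyp2d9 in refed livers, Cre lay above GFP and KO below WT, a difference of 1.78 (adjusted p = 0.293). Cyp2d12, its neighbour with 92.1% identical coding bases, showed the same order in refed livers, with a difference of 1.662 (adjusted p = 0.293). None passed the test of the difference. This opposite order held for 1 of 37 Cyp2 genes in fasted livers, against 0.833% of 10682 genes, and for 2 of 37 in refed livers, against 0.964%.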

How the results depend on the processing

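Counts of Cyp2 genes called depended on the settings. With a pseudocount of 0.1, Cre refeeding gave 2. With no filter, acute fasted, GFP refeeding, Cre refeeding and constitutive refed gave 0, acute over both states 4 and constitutive over both 2. Median-of-ratios scaling gave 0 for Cre refeeding. With the replicate number as a block, acute fasted gave 1, acute over both states 4 and Cre refeeding 0. Constitutive over both then gave 2, WT refeeding 1 and KO refeeding 2. Same-numbered libraries correlated at -0.349 to 0.378 over 36 pairs, 13 above 0.1. In 13 of the 36 the same-numbered library was the best match, more often in the constitutive than in the acute model. Whether the numbers mark pairs was therefore not settled. Array weights gave 0 for GFP refeeding, 1 for constitutive fasted and 2 each for Cre refeeding, constitutive refed and KO refeeding. At an adjusted p under 0.01, acute over both states gave 2, constitutive over both 1, and acute fasted, constitutive refed and the GFP, Cre and KO refeeding comparisons 0. With the compared groups alone, constitutive refed gave 2, and acute refed, GFP refeeding and Cre refeeding 0. Without the deepest acute libraries the 3 acute knockout comparisons and both acute refeeding comparisons gave 0, and without the 3 libraries that stood apart acute over both states gave 1, and acute refed and GFP refeeding 0. Leaving out 1 library gave 0 to 2 in acute fasted, 1 to 4 in acute refed, 4 to 9 in acute over both, 0 to 1 in GFP refeeding, Cre refeeding and constitutive refed, 2 to 4 in constitutive over both, 0 to 2 in KO refeeding and 0 to 1 for the fasted difference between models, and 0 to 0 elsewhere. With 1 library left out, the acute fasted change of Cyp2d9 was -0.117 (without GFP fasted 1, as without the 3 libraries) to 0.641, and the constitutive fasted changes of Cyp2c38 and Cyp2e1 were -0.326 to 0.0794 and -0.192 to 0.0660, above 0 without WT fasted 2. Over all genes, the lowest and highest counts of calls under any alternative, leaving out 1 library included, were 5 and 76 in acute fasted (31 as reported), 2 and 66 in acute refed (11), 7 and 204 in acute over both states (154), 1 and 21 in constitutive fasted (10), 1 and 13 in constitutive refed (3) and 13 and 88 in constitutive over both (75). For refeeding they were 39 and 686 in GFP (686), 6 and 880 in Cre (569), 2 and 156 in WT (33) and 41 and 824 in KO livers (589). They were 2 and 7 for the acute interaction (3), 0 and 1 for the constitutive one (0), and 0 and 45 fasted and 0 and 14 refed for the difference between models (0 and 0). Fewer libraries or more genes tested set some of these counts, and the cause of the rest was not tested.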

Other observations

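Pseudogene loci of the family, which the naming rule left out, were listed too. Cyp2d37-ps was 34.8 to 99.9 FPKM, with group means of 44.9 in GFP fasted, 62.1 in Cre fasted, 58.5 in GFP refed, 49.5 in Cre refed, 84.5 in WT fasted, 80.7 in KO fasted, 82.4 in WT refed and 81.1 in KO refed livers. Cyp2c53-ps was 0.743 to 3.61 FPKM.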
